A study of Mus musculus with 9 samples.

Results

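Potassium channel subunits were examined as 1 gene module in RNA sequencing libraries of mouse heart and quadriceps muscle. The members were the genes whose symbols begin with Kcn, followed by further letters and a number. Membership followed from names only, while the choice of transcript given below used the counts. The rule took 97 gene names with 190 RefSeq transcripts, out of 24537 gene names with 35745 transcripts in the table. Of the 97 names, 93 were protein-coding genes and 4 were noncoding RNAs that share the prefix (Kcnq1ot1, Kcnd3os, Kcnmb4os1 and Kcnmb4os2). Each gene was represented by its transcript with the highest summed count.

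Potassium channels let potassium ions leave the cell and so set the resting potential and end the action potential. The pore is lined by subunits that fall into voltage-gated (Kv), calcium- or sodium-activated, inward rectifier (Kir) and two-pore (K2P) families, while accessory subunits change the gating or the surface level of the pores. In the working heart, transient outward, delayed rectifier and inward rectifier currents repolarise the action potential. In skeletal muscle fibres, delayed rectifier and inward rectifier currents act on a shorter one, together with a large chloride conductance.

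All libraries came from C57Bl/6JCrl mice, a common inbred strain, and the study used male mice of 8 to 10 weeks of age at surgery. The groups compared were 3 libraries of whole-tissue RNA from the heart and 3 from the quadriceps muscle of sham mice, which had the operation without the aortic constriction, with the quadriceps taken 12 weeks after surgery. The protocols in the labels describe only the quadriceps, also for the heart libraries, and the part of the heart that was taken is not given in the sources used here. The series holds 9 libraries. The remaining 3 are quadriceps of mice with transverse aortic constriction (TAC), whose deposited table covers 587 genes for secreted proteins and 0 of the 97 members, so TAC was not analysed here. The study's methods speak of biological replicates, but the labels tie no library to a mouse and do not say whether heart and quadriceps came from the same animals. P-values therefore measure the spread between these libraries, which may be technical in part.

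Counts summed over all transcripts ran from 23383452 to 38382751 in the 6 libraries, which limits counting precision for the rarest members. Transcripts of a gene share reads, so these sums are not numbers of separate reads. Tissue labels were checked first. Myh6, the cardiac myosin heavy chain, had 933029, 889236 and 768767 reads in heart against 82, 72 and 59 in quadriceps, and Actn3, the alpha-actinin of fast fibres, had 3, 4 and 1 in heart and 87745, 130518 and 90196 in quadriceps. The heart libraries differed among themselves in atrial markers. Myl7, the atrial myosin light chain, was counted 2075, 164 and 3 times in heart 1, 2 and 3, and Sln, which encodes sarcolipin, 838, 48 and 2 times. Of the other atrial markers, Myl4 had 6811, 756 and 91 counts, Nppa 21763, 20012 and 8000, and Bmp10 0, 0 and 1. Heart 3 thus held almost none of 2 atrial markers that were plentiful in heart 1, while Nppa differed less. Members known to be high in atria are given per library for this reason. By the marker lists as a whole, 5 of 5 cardiomyocyte and 3 of 5 atrial markers were lower in quadriceps, 5 of 5 fast fibre markers were higher, and of 5 slow fibre markers, some of which the heart also expresses, 2 were higher and 3 lower. Of 5 markers each, 4 for conduction tissue, 4 for fibroblasts and 2 for leukocytes were lower. Because these are bulk tissues, fewer cells of a type and less RNA per cell cannot be told apart.

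The sequence that carries potassium selectivity was used to see what the members share beyond their names. In potassium pores, 5 codons encode the selectivity filter: a threonine or serine, an aliphatic residue, a glycine, an aromatic residue or leucine, and a glycine. Coding sequences of 93 members were read from the GENCODE transcripts of GRCm38 that match the counted RefSeq transcripts. The 5-codon signature was present in 77 of 77 pore-forming members, silent Kv subunits included, and in 0 of 16 accessory subunits. Of the 14 two-pore members, 12 held 2 copies. The other 63 pore-forming members held 1 copy each. The windows below are shown because their genes carry the tissue differences; each holds 57 bases of coding sequence, 5′ to 3′, with the 15 bases of the signature in capitals. The first 4 belong to genes that were higher in quadriceps:
Kcna7 (Kv1.7, chr7:45409440-45409496, plus strand): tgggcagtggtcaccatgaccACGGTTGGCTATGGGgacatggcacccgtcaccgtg
Kcnc1 (Kv3.1, chr7:46427952-46428008, plus strand): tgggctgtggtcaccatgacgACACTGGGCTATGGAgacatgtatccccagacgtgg
Kcnc4 (Kv3.4, chr3:107447778-107447834, minus strand): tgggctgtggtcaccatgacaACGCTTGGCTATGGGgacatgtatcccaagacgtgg
Kcnma1 (BK channel, chr14:23528392-23528448, minus strand): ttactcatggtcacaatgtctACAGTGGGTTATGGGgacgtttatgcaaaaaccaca

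Next come 5 genes that were lower in quadriceps than in heart and 2 inward rectifiers that were abundant in both tissues (Kcnj2 and Kcnj11). Those of Kcnk3 and Kcnq1 cross an intron, so their coordinates span more bases than the sequence:
Kcnk3 (TASK-1, first of its filters, chr5:30588572-30621919, plus strand): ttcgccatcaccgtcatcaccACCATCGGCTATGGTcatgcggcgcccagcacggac
Kcnh2 (ERG, chr5:24325534-24325590, minus strand): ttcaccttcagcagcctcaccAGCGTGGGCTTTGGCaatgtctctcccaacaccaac
Kcnq1 (Kv7.1, chr7:143184534-143191467, plus strand): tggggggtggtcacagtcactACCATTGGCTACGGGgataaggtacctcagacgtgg
Kcnj3 (Kir3.1, chr2:55437606-55437662, plus strand): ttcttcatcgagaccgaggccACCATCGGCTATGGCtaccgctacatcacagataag
Kcnj5 (Kir3.4, chr9:32322538-32322594, minus strand): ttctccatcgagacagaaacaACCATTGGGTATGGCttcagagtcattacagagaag
Kcnj2 (Kir2.1, chr11:111072186-111072242, plus strand): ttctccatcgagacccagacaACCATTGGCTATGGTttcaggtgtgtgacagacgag
Kcnj11 (Kir6.2, chr7:46099475-46099531, minus strand): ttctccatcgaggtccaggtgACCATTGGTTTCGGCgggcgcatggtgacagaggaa
The signatures of 75 members, all but 2 whose sequence is not shown here, took 64 different 15-base forms.

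To ask which members differ between the tissues, a quasi-likelihood model of the raw counts was fitted in edgeR to all 24280 transcripts that exceeded 5 counts in 2 or more libraries. Fold changes are quadriceps over heart on the log2 scale, with the standard error of the fit, and adjusted p-values are Benjamini-Hochberg values over all 24280 transcripts. A call means an adjusted p under 0.05. An exact permutation test of 3 against 3 libraries cannot give a two-sided p under 0.1, so no single-gene permutation test was made. Of the 97 members, 62 passed the count filter and 35 did not. In quadriceps, 13 were higher and 29 were lower than in heart, and 20 were not called. The filter used raw counts, and each quadriceps library had a lower summed count than each heart library. A gene high only in quadriceps therefore passed less easily. With no count filter 90 members entered, of which 18 were higher and 28 lower. The share of all genes called without the filter is not given here, so these 2 counts stand without a background.

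Tissue calls are common in this comparison, so the counts need their background. Over 1 transcript per gene name (14906 genes), 32.1% were called higher and 33.9% lower; over all transcripts these shares were 32.2% and 34.4%. The members' 13 of 62 higher calls (21.0%) lie below that share and their 29 lower calls (46.8%) above it. Among large changes both directions lay above the background. Beyond a log2 fold change of 2, 10 members (16.1%) were higher and 21 (33.9%) lower, against 7.13% and 8.94% of all genes and 6.99% and 8.53% of all transcripts. The median change was -0.65 over the 62 members and -0.05 over all genes, and the median absolute change was 2.05 against 0.75. Libraries of the 2 tissues did not overlap for 44 of 62 members (71.0%), which is close to the 71.7% of all genes.

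**Figure D1:**
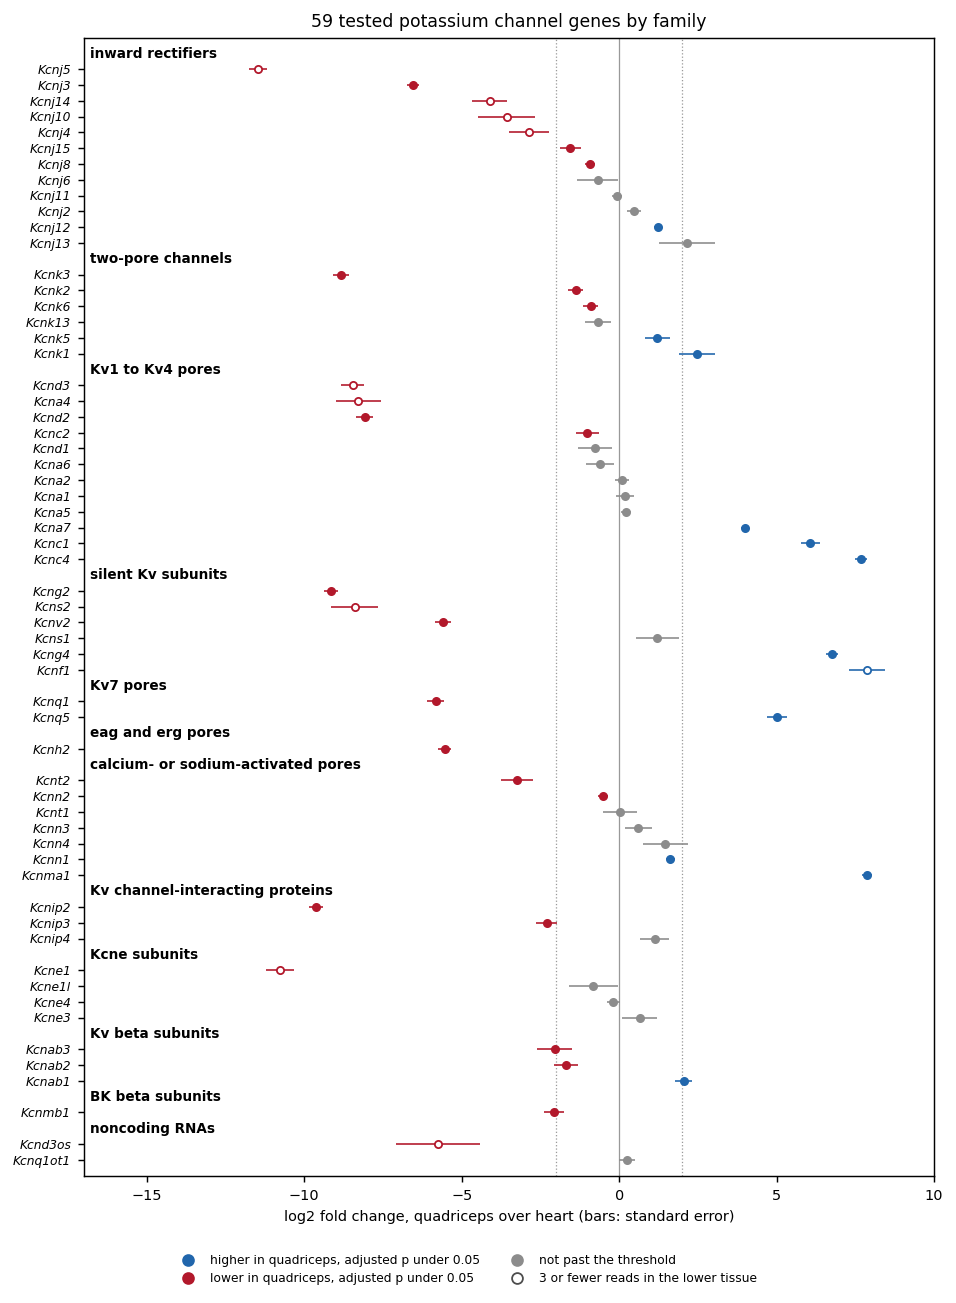
Log2 fold change of quadriceps over heart for 59 of the 62 tested members, grouped by family, with the standard error as a bar; blue marks 12 called higher, red 28 called lower, grey 19 not called, and open symbols have 3 or fewer reads in the lower tissue, so that their position depends on the fit's prior count. Dotted lines stand at -2 and 2; the changes reach further to the left (heart) than to the right.

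The scaling between tissues matters for small differences. The deposited RPKM values, which divide counts by transcript length and sequencing depth, use library totals, whereas the counts were scaled with TMM, which sets the bulk of transcripts level. With library totals the median of all transcripts moves from -0.06 to -0.80, a shift of -0.75. Then 12 members were higher and 36 lower, of which 7 were not called with TMM (Kcna2, Kcna5, Kcna6, Kcnd1, Kcne4, Kcnj11 and Kcnk13). The share of all genes called under this scaling is not given here, so these counts stand without a background. All 29 lower calls and 12 of the 13 higher ones were kept, and no called member changed direction. Levels of different genes within a tissue are compared below in RPKM, and each gene is compared between tissues in TMM-normalized read counts. Sums of RPKM over members or marker lists are also given per tissue; these use library totals, so they carry the shift and were not tested.

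In heart, the protein-coding members summed to 251 ± 7.88 RPKM (SD, n = 3), and 21 had a mean of at least 1 RPKM. In quadriceps the sum was 92.7 ± 7.21 RPKM (SD, n = 3) and 15 members reached 1 RPKM; 8 did so in both tissues and 28 in either. Few genes made up most of the signal, since the top 5 held 64.3% of the summed RPKM in heart and 66.3% in quadriceps. The order of genes differed. Heart was led by Kcnip2, the Kv4 accessory subunit KChIP2, at 58.0 ± 4.07 RPKM and by Kcnk3, the background two-pore channel TASK-1, at 54.3 ± 1.93 RPKM, which lie within their spread of each other. A wide gap separated them from Kcnj11 at 18.2 ± 0.609 RPKM, Kcng2 at 16.1 ± 0.854 RPKM, Kcnj3 at 15.0 ± 1.89 RPKM and Kcnj5 at 14.8 ± 0.933 RPKM.

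In quadriceps Kcna7, a shaker-type Kv channel, stood alone at 27.8 ± 2.34 RPKM (SD, n = 3, as for every level here). It was followed by 3 inward rectifiers, Kcnj11 at 10.3 ± 1.59 RPKM, Kcnj2 at 9.56 ± 3.80 RPKM and Kcnj12 at 8.15 ± 0.886 RPKM, whose SDs overlap. Next came Kcnma1 at 5.59 ± 0.347 RPKM, Kcng4 at 4.76 ± 0.534 RPKM and Kcnc4 at 4.67 ± 0.345 RPKM. By family, Kv1 to Kv4 pores held 43.3% of the summed RPKM in quadriceps and 7.35% in heart. Inward rectifiers had a similar share in both, 33.2% and 29.6%. Two-pore channels held 22.7% of the heart sum and 1.49% of the quadriceps sum, and KChIP subunits 23.3% and 0.245%; these shares are descriptions, with no test.

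**Figure D2:**
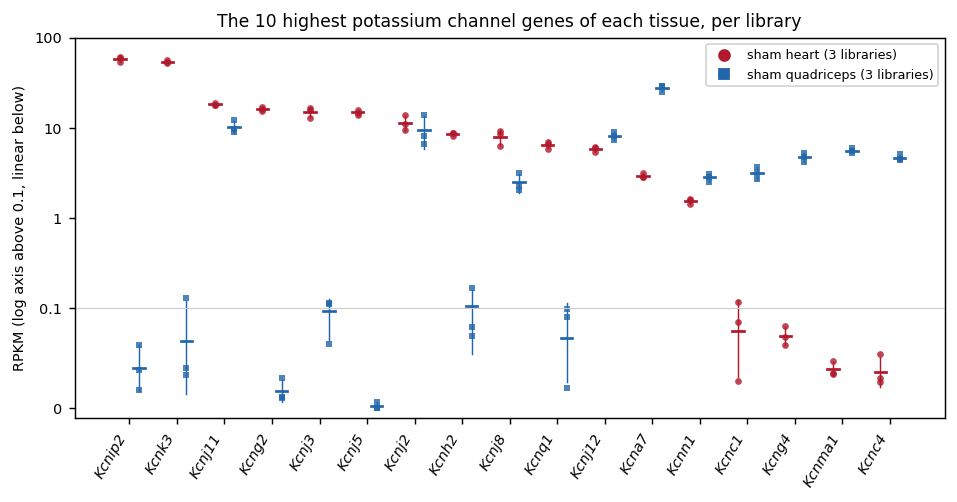
RPKM per library for the 10 highest members of each tissue (17 genes in all), ordered by heart level; points are libraries, short lines the mean and thin bars the SD, on an axis that is logarithmic above 0.1 and linear below. From Kcnip2 at 58.0 RPKM in heart to Kcna7 at 27.8 RPKM in quadriceps, only Kcnj11, Kcnj2, Kcnj8, Kcnj12, Kcna7 and Kcnn1 of these 17 stand above 1 RPKM in both tissues.

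Inward rectifiers pass potassium best near the resting potential. Of 15 members 12 were tested, and in quadriceps 1 was higher, 7 were lower and 4 were not called. The strong rectifiers of the Kir2 group, which hold the resting potential, split. Kcnj2 (Kir2.1) had 1399, 1581 and 2029 normalized reads in heart 1, 2 and 3 and 3167, 1750.2 and 2048 in quadriceps 1, 2 and 3. The ranges overlap, and quadriceps 1 is the highest of the 6. The difference was 0.48 (SE 0.22, adjusted p = 0.0802). DESeq2 called it at 0.49, as did edgeR without heart 3 (0.64) or without quadriceps 2 (0.65), and with library totals the sign turned (-0.25), so its direction and its call depended on the setting.

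Kcnj12 (Kir2.2), the other abundant Kir2 gene, had 738, 702 and 643 normalized reads in heart and 1523, 1921 and 1479 in quadriceps. Every quadriceps library was above every heart library, with a log2 fold change of 1.24 (SE 0.13, adjusted p = 2.08e-05), and it was the single inward rectifier called higher. The remaining Kir2 genes were scarce. Kcnj14 (Kir2.4) had 30, 26 and 23 raw reads in heart against 1, 1 and 0 in quadriceps, a ratio of 19.3 (exact 95% interval 5.17 to 162), and Kcnj4 (Kir2.3) had 17, 16 and 15 in heart against 0, 2 and 1, a ratio of 7.82 (exact 95% interval 2.52 to 39.2). Both were called lower, with adjusted p-values of 0.000153 and 0.00333. Ratios of this kind, for groups with 1 to 3 reads, are of heart over quadriceps where heart is higher, are scaled by TMM, and their intervals cover counting error only.

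ATP-sensitive channels join a Kir6 pore with a sulfonylurea receptor and couple the membrane potential to metabolism. Kcnj11 (Kir6.2), the muscle pore, had 1602, 1494 and 1491 normalized reads in heart and 1173, 1809 and 1406 in quadriceps. The ranges overlap, and the change was -0.06 (SE 0.15, adjusted p = 0.717). On library totals it was lower in quadriceps (-0.83, adjusted p = 0.000361), about the shift of all transcripts. Kcnj8 (Kir6.1), the vascular pore, had 435, 624 and 584 in heart and 337, 253 and 267 in quadriceps, without overlap, and was lower, at a log2 fold change of -0.94 (SE 0.17, adjusted p = 0.000808). Markers of vessel cells were lower too: 4 of 5 pericyte markers and 5 of 5 endothelial markers were called lower in quadriceps, while of 5 smooth muscle markers 2 were lower and 1 was higher. The summed pericyte list ran from 101 to 118 RPKM in heart and from 43.3 to 75.3 RPKM in quadriceps, but most of that sum was Rgs5, the pericyte marker that was not called (-0.01 with TMM, adjusted p = 0.968, and -0.74 with library totals). The part of the pericyte markers in the Kcnj8 difference was not tested.

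The receptors differed from each other. Abcc9, which encodes SUR2, had 6561, 7291 and 5887 normalized reads in heart and 5572, 6894 and 7975 in quadriceps, and was not called (0.05, SE 0.15, adjusted p = 0.778). With library totals it was called lower in quadriceps (-0.71, adjusted p = 0.00151). Abcc8, which encodes SUR1, fell from 638, 582 and 584 to 39.8, 61.4 and 35.6, a log2 fold change of -3.70 (SE 0.18, adjusted p = 1.49e-07). Of the 4 KATP genes measured, the SUR1 gene thus showed the greatest difference under both scalings, while the Kir6.2 and SUR2 genes were called with library totals and not with TMM.

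The G protein-gated channel of the atrium and sinus node, which slows the heart under vagal drive, is built from Kcnj3 (GIRK1) and Kcnj5 (GIRK4). Kcnj3 had 2216, 1787 and 2311 normalized reads in heart and 24.4, 16.1 and 27.7 in quadriceps, a change of -6.55 (SE 0.20, adjusted p = 8.44e-09). Kcnj5 had 1929.8, 1671 and 1771 in heart, and 1, 0 and 0 raw reads in quadriceps, so that heart was higher by a ratio of 3523 (exact 95% interval 632 to 139164). Both were called and neither overlapped. Although atrial markers differed among the heart libraries, these genes hardly did. Heart 3, with 3 Myl7 and 8000 Nppa counts, held 2839 raw counts of Kcnj3 against 3020 in heart 1. The other GIRK genes were rare, Kcnj6 with 9, 7 and 4 reads in heart against 4, 1 and 1 in quadriceps (not called) and Kcnj9 with 3, 1 and 2 in heart against 1, 1 and 0 (not tested).

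**Figure D3:**
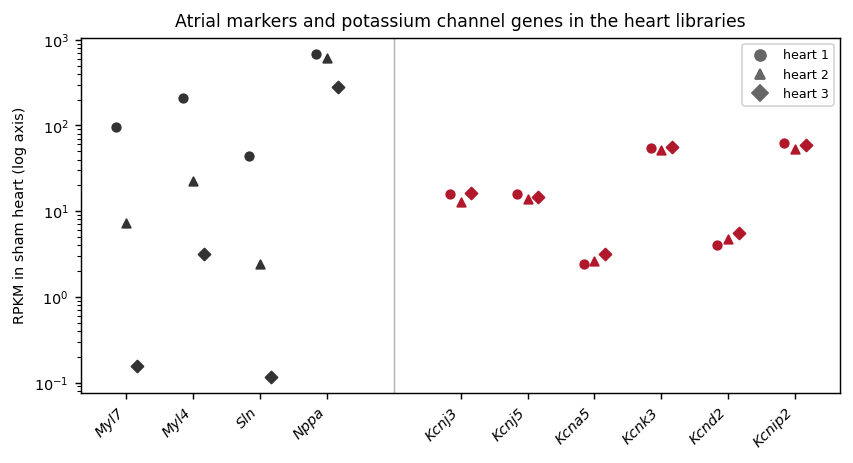
RPKM in heart 1, 2 and 3 (circle, triangle, diamond; log axis) for 4 atrial markers in dark grey and 6 members in red. Myl7 and Sln span more than 2 decades among the libraries and Nppa far less, while Kcnj3, Kcnj5, Kcna5, Kcnk3, Kcnd2 and Kcnip2 lie close together in each.

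Further inward rectifiers were low. Kcnj10 (Kir4.1), a glial buffering channel, had 8, 11 and 11 reads in heart against 0, 0 and 1 in quadriceps and was called lower (adjusted p = 0.00587), and Kcnj15 was lower, at a log2 fold change of -1.55 (SE 0.32, adjusted p = 0.00215). Kcnj13 was not called, and Kcnj1 and Kcnj16 were not tested. None of the 5 reached 1 RPKM in either tissue.

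Two-pore channels carry background current that stabilises the resting potential. Only 6 of 14 were tested, and 2 were higher, 3 were lower and 1 was not called. Kcnk3 (TASK-1), an acid-sensitive channel, had 5604, 5316 and 5766 normalized reads in heart and 20.6, 7.30 and 5.93 in quadriceps, a log2 fold change of -8.83 (SE 0.26, adjusted p = 7.01e-09). It was the most abundant pore-forming member of heart and nearly absent from quadriceps. The stretch-sensitive Kcnk2 (TREK-1) had 131, 199 and 164 in heart and 84.8, 46.8 and 55.3 in quadriceps, lower, at a log2 fold change of -1.38 (SE 0.24, adjusted p = 0.00078). Kcnk6 (TWIK-2) was lower, at -0.91 (SE 0.23, adjusted p = 0.00679).

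Higher values in quadriceps were found for 2 scarce two-pore genes. Kcnk1 (TWIK-1) had 22, 8 and 6 reads in heart against 63, 14 and 24 in quadriceps, with a log2 fold change of 2.48 (SE 0.57, adjusted p = 0.0037). Normalized for depth its libraries did not overlap, but quadriceps 1 stood far above the other two, and limma on RPKM with a pseudocount of 0.5 lost the call (adjusted p = 0.0515). The call of Kcnk1 was kept in 14 of 16 alternative settings, with adjusted p up to 0.0577. Kcnk5 (TASK-2) had 9, 9 and 5 raw reads in heart against 9, 8 and 9 in quadriceps. Its call (1.21, SE 0.40, adjusted p = 0.0237) was lost with library totals (0.47, adjusted p = 0.296), with DESeq2 (adjusted p = 0.0691), and without heart 3 or quadriceps 3, among others. Of the 16 alternative settings that tested Kcnk5, 8 kept the call. Kcnk13 was not called.

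Voltage-gated pores of the Kv1 to Kv4 groups numbered 17, of which 14 were tested. In all, 3 were higher in quadriceps, 5 were lower and 6 were not called. The Kv4 pores and their partner KChIP2 carry the fast transient outward current of cardiac muscle cells. Kcnd2 (Kv4.2) had 495, 577 and 685 normalized reads in heart and 2.57, 1.46 and 1.98 in quadriceps, a log2 fold change of -8.09 (SE 0.28, adjusted p = 1.78e-08). Kcnd3 (Kv4.3) had 448, 395 and 363 in heart and 0, 2 and 0 raw reads in quadriceps, a ratio of 397 (exact 95% interval 109.8 to 3282). Kcnd1 (Kv4.1) had 11, 13 and 8 reads in heart against 5, 1 and 3 in quadriceps and was not called. In heart the order of levels was Kcnd2 at 4.79 ± 0.799 RPKM, Kcnd3 at 2.08 ± 0.211 and Kcnd1 at 0.0768 ± 0.0128, with no overlap between neighbours.

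The slower transient outward current is carried by Kcna4 (Kv1.4), which had 59, 52 and 45 raw reads in heart against 0 in each quadriceps library; against a floor of 3 counts over the group it was at least 25.4-fold higher in heart. Kcnip2 had 3996, 3409 and 3779 normalized reads in heart and 3.85, 7.30 and 1.98 in quadriceps, a change of -9.63 (SE 0.22, adjusted p = 2.22e-09). Of the other KChIP genes, Kcnip3 was lower in quadriceps (-2.30, SE 0.34, adjusted p = 0.000255), Kcnip4 was not called (1.12, SE 0.47, adjusted p = 0.0578) and Kcnip1 was not tested. Dpp6, a membrane partner of Kv4 pores, went the other way, with 1, 2 and 4 counts in heart, 42, 32 and 25 in quadriceps and a log2 fold change of 4.75 (SE 0.40, adjusted p = 6.13e-06). Of the transient outward set, Kcnd2, Kcnd3, Kcna4, Kcnip2 and Kcnip3 were thus lower in quadriceps. Kcnd1 and Kcnip4 were not called and Kcnip1 was not tested, and the low-count partner Dpp6 was higher.

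Delayed rectifiers end the action potential. Kcna5 (Kv1.5), an ultrarapid delayed rectifier, had 197, 210.5 and 254 normalized reads in heart and 281, 270.3 and 207 in quadriceps. The ranges overlap and it was not called (0.21, SE 0.15, adjusted p = 0.251). With library totals the sign turned and it was called lower in quadriceps (-0.54, adjusted p = 0.0185), as it was by limma on RPKM with each pseudocount (adjusted p from 0.0207 to 0.0212). In the heart libraries its raw counts were 269, 303 and 312. Amigo1, a membrane partner of Kv channels, was higher in quadriceps (0.99, SE 0.16, adjusted p = 0.000392), a call that was lost with library totals (adjusted p = 0.133).

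The slow cardiac delayed rectifier is formed by Kcnq1 (Kv7.1) with the single-span subunit Kcne1 (minK). Kcnq1 had 573, 472 and 535 normalized reads in heart and 11.6, 2.92 and 13.8 in quadriceps, a log2 fold change of -5.83 (SE 0.27, adjusted p = 1.22e-07). Kcne1 had 272, 339 and 276 raw reads in heart against 0 in all 3 quadriceps libraries, which places heart at least 144-fold higher. The rapid component is carried by Kcnh2 (ERG), with 1004, 914 and 983 in heart and 29.6, 14.6 and 15.8 in quadriceps, a change of -5.54 (SE 0.20, adjusted p = 2.27e-08). Kcne2, once proposed as its partner, had 2, 0 and 1 reads in heart against 2, 0 and 0 in quadriceps. Of the 3 genes Kcnq1, Kcne1 and Kcnh2, none overlapped between the tissues.

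**Figure D4:**
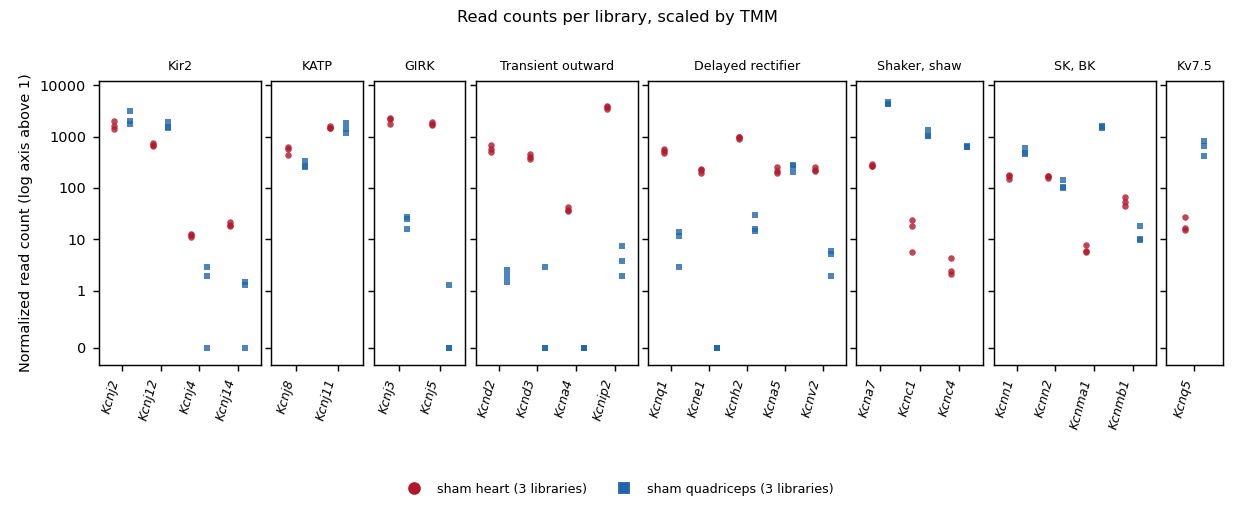
TMM-normalized read counts per library (log axis above 1, linear below) for 8 sets of genes; heart in red circles, quadriceps in blue squares, 3 libraries each. Transient outward genes, GIRK genes and the Kcnq1, Kcne1 and Kcnh2 genes lie at 29.6 normalized reads or fewer in quadriceps, whereas Kcnc1, Kcnc4 and Kcnma1 lie at 24.3 or fewer in heart.

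The Kv1 to Kv4 pores called higher in quadriceps were Kcna7, Kcnc4 and Kcnc1, of which Kcna7 was also present in heart. Kcna7 (Kv1.7) had 272, 263 and 295 normalized reads in heart and 4297, 4229.5 and 4677 in quadriceps, a log2 fold change of 3.99 (SE 0.11, adjusted p = 4.48e-09). It remained among the 15 highest members of heart at 2.94 ± 0.173 RPKM. Kcnc4 (Kv3.4), a fast-inactivating channel known from skeletal muscle, had 4.40, 2.08 and 2.44 in heart and 639, 652 and 616 in quadriceps, a change of 7.68 (SE 0.19, adjusted p = 3.47e-09). Kcnc1 (Kv3.1), a high-threshold channel best known from fast-firing neurons, had 18.3, 24.3 and 5.70 in heart and 1024, 1007 and 1327 in quadriceps (6.07, SE 0.31, adjusted p = 2.27e-07). Within heart its 3 libraries spread over more than a factor of 4, the lowest being heart 3.

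Since Kcnc1 is known from neurons, nerve markers were read beside it. Neuronal markers were at or near 0: Snap25 and Chat had 0 counts in every library, and Elavl4, Syn1 and Tubb3 had at most 13. The summed neuronal list ran from 0.140 to 0.171 RPKM in heart and from 0.105 to 0.191 RPKM in quadriceps. Of 5 Schwann cell markers, 2 were higher in quadriceps and 3 were not called. The summed Schwann list ran from 2.03 to 3.14 RPKM in heart and from 9.61 to 11.2 RPKM in quadriceps, and its part in the Kcnc1 and Kcnc4 differences was not tested.

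Further Kv1 to Kv3 pores were low in both tissues. Kcna1 had 73.4, 72.2 and 37.4 normalized reads in heart and 88.7, 57.0 and 61.2 in quadriceps. Kcna2 and Kcna6 likewise overlapped between the tissues, and all 3 stayed below 1 RPKM and were not called. With library totals Kcna2 (-0.65, adjusted p = 0.0392) and Kcna6 (-1.36, adjusted p = 0.0226) were called lower. Kcnc2 was called lower (-1.01, SE 0.37, adjusted p = 0.035), a call that was lost on leaving out any 1 of the 6 libraries (adjusted p from 0.0525 to 0.0900). Kcna3, Kcna10 and Kcnb2 had at most 5 counts over all libraries and were not tested.

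Silent Kv subunits hold a pore sequence but conduct only when paired with other Kv subunits. Here some were among the highest members, with different genes leading in each tissue. Of 10, 6 were tested, with 2 higher, 3 lower and 1 not called. Kcng2 (Kv6.2), which had 1295, 1199.7 and 1154 normalized reads in heart and 1.28, 1.46 and 3.95 in quadriceps, was lower, at a log2 fold change of -9.14 (SE 0.22, adjusted p = 2.71e-09). Kcnv2 (Kv8.2), known from photoreceptors, had 211, 224 and 251 in heart and 5.14, 5.84 and 1.98 in quadriceps (-5.61, SE 0.25, adjusted p = 1.07e-07). Kcns2 (Kv9.2) had 49, 70 and 51 raw reads in heart against 0 in quadriceps, at least 27.7-fold higher in heart.

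In quadriceps the silent subunits were Kcng4 and Kcnf1. Kcng4 (Kv6.4) had 7.34, 8.34 and 6.51 normalized reads in heart and 762, 969 and 741 in quadriceps, a log2 fold change of 6.77 (SE 0.19, adjusted p = 5.2e-09). Kcnf1 (Kv5.1) had 1, 1 and 0 raw reads in heart against 152, 105 and 40 in quadriceps, a quadriceps over heart ratio of 304 (exact 95% interval 83.4 to 2522), with quadriceps 3 the lowest of its 3 libraries. Kcns3 had 1, 2 and 1 reads in heart against 12, 4 and 5 in quadriceps and did not enter the test, and Kcng1, Kcng3 and Kcnv1 had at most 2 counts in all.

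Members of the Kv7 family divided between the tissues as well. Unlike Kcnq1, which was lower in quadriceps, Kcnq5 (Kv7.5), a smooth and skeletal muscle channel, had 16.9, 15.3 and 26.9 normalized reads in heart and 418, 655 and 828 in quadriceps, a log2 fold change of 5.01 (SE 0.31, adjusted p = 7.63e-07), without overlap. Kcnq3, a subunit of the neuronal M current, had at most 1 count in any library and was not tested. Among the 8 eag and erg genes Kcnh2 alone was tested; the other 7 had at most 7 counts in any library.

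Calcium- and sodium-activated pores counted 8 members, 7 of them tested, with 2 higher, 2 lower and 3 not called. Kcnma1, the large-conductance BK channel, had 5.87, 7.64 and 5.70 normalized reads in heart and 1524, 1622 and 1485 in quadriceps, a log2 fold change of 7.88 (SE 0.15, adjusted p = 1.78e-09), the largest among members with more than 3 reads in heart. Its smooth muscle accessory subunit Kcnmb1 went the other way, with 60, 98 and 67 raw reads in heart against 14, 7 and 5 in quadriceps (-2.08, SE 0.31, adjusted p = 0.000298). Kcnmb2, Kcnmb3 and Kcnmb4 were not tested. Of the BK gamma subunits, which ease the opening of the channel, Lrrc38 rose with the pore: it had 2, 1 and 2 raw reads in heart against 438, 565 and 255 in quadriceps (8.85, SE 0.34, adjusted p = 3.64e-08). Lrrc55 was lower (-2.21, SE 0.40, adjusted p = 0.000883), Lrrc52 was not called and Lrrc26 had 0 counts in every library.

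Small-conductance SK channels differed less. Kcnn1 (SK1) had 179.8, 152 and 170.1 normalized reads in heart and 486, 596 and 468 in quadriceps, without overlap (1.63, SE 0.13, adjusted p = 4.58e-06). Kcnn2 (SK2), a channel of atrial myocytes, had 168, 158 and 169 in heart and 143, 99.3 and 105 in quadriceps and was called lower (-0.50, SE 0.16, adjusted p = 0.0204), but the call was lost on leaving out heart 1, heart 3, quadriceps 2 or quadriceps 3 in turn (adjusted p up to 0.0690). Kcnn3 (SK3) had 33.0, 36.1 and 33.4 in heart and 87.4, 19.0 and 47.4 in quadriceps; quadriceps 1 was highest and quadriceps 2 lowest of the 6, and it was not called unless quadriceps 2 was left out (1.02, adjusted p = 0.0106). Kcnn4 was not called either, except without quadriceps 2 (1.86, adjusted p = 0.0442). The sodium-activated Kcnt2 was lower (-3.25, SE 0.51, adjusted p = 0.000349), with 114, 120 and 82 raw reads in heart against 12, 0 and 4 in quadriceps, and Kcnt1 was not called.

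Among the accessory subunits not yet described, the cytoplasmic Kv beta genes split by gene. Kcnab1 had 33.0, 32.7 and 41.5 normalized reads in heart and 200.5, 105 and 132 in quadriceps (2.04, SE 0.26, adjusted p = 8.78e-05), while Kcnab2 was lower (-1.70, SE 0.39, adjusted p = 0.00359) and so was Kcnab3 (-2.05, SE 0.55, adjusted p = 0.00814). The Kcne genes other than Kcne1 were rare. Kcne4 had 47.0, 52.1 and 52.9 in heart and 36.0, 49.7 and 49.4 in quadriceps and was not called, and neither were Kcne3 or Kcne1l, now named Kcne5. Over all accessory families, 11 genes were tested and 1 was higher, 6 were lower and 4 were not called.

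Genes that are no members but partners of potassium channels were taken as a list of 19, of which 17 were tested. In quadriceps 10 were higher, 3 were lower and 4 were not called, with 4 higher beyond a log2 fold change of 2; library totals gave 6 higher and 6 lower. Ank2, which anchors channels in the membrane, was lower (-0.86, SE 0.15, adjusted p = 0.000674). Akap9, the anchor of Kv7.1, was not called (-0.59, SE 0.26, adjusted p = 0.0685), and Cav3, at 0.69 (SE 0.12, adjusted p = 0.000718), changed sign with library totals (-0.07).

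Some members have several transcripts in the table, 31 in all. For 22 of them at least 2 transcripts were tested; in 0 of these were transcripts called in opposite directions. The largest difference between transcripts of a gene was 1.09, between the Kcnc1 transcripts at 6.07 and 7.16, and it was the single difference above 1. All 22 transcripts of Kcnma1 were higher in quadriceps, with log2 fold changes from 7.42 to 7.92. Transcripts of a gene share most of their exons and their reads, so these are not independent measurements.

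The 4 noncoding RNAs are antisense to the channel genes whose names they carry. Kcnd3os had 13, 9 and 5 raw reads in heart against 0 in quadriceps, at least 4.40-fold higher in heart (adjusted p = 0.00635), and it was below the count filter without heart 1 or heart 2. Its gene overlaps exons of Kcnd3 on the other strand, and Kcnd3 was lower in quadriceps too. Kcnq1ot1, the imprinted antisense RNA inside the Kcnq1 gene, had 189, 195 and 212 normalized reads in heart and 337, 149 and 219 in quadriceps and was not called (0.25, SE 0.24, adjusted p = 0.38), unlike Kcnq1 itself. Kcnmb4os1 and Kcnmb4os2 had at most 4 counts in a library. In the GENCODE annotation 30 of the 97 members share exon bases with a gene on the opposite strand, among them Kcnj3, Kcnk3, Kcnma1, Kcnd3, Kcng2, Kcnq1, Kcnq5, Kcnn1, Kcnab1 and Kcnt2, and 2 with one on the same strand. Whether counting used the strand is not given in the sources used here, so the reads of such pairs cannot be told apart.

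The 35 untested members were at the lower end of detection, and 7 of them (Kcng3, Kcnv1, Kcnh5, Kcnmb3, Kcnk15, Kcnk16 and Kcnk18) had 0 counts in all 6 libraries. At these totals a count of 0 over a tissue allows up to 3 counts over its 3 libraries, so no expression was detectable at this depth. They include 8 of the 14 two-pore genes, 7 of the 8 eag and erg genes and 3 of the 4 BK beta genes.

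Promoter windows of RefSeq on GRCm38.p6 were searched for motifs of muscle transcription factors on both strands, in 300 bases from 250 before to 50 after the start. Of the 97 members, 71 had an entry, and for 68 a window lay within 1000 bases of the start of the counted transcript. Among members changed beyond a log2 fold change of 2, an E-box (CANNTG) was found in 6 of 9 windows of genes higher in quadriceps and in 8 of 12 of genes lower, and in 72.3% of all 32851 windows. The form CAGCTG, which is one of these E-boxes, was found in 1 of 9 and 2 of 12, and in 16.3% of all windows. No window of either group held the MEF2 motif (3.19% of all windows) or the CArG box (1.63%). The upstream 250 bases of a gene from each side show the same 6 letters, in capitals, in a quadriceps gene and in a heart gene:
Kcng4 (chr8:119635681-119635930, minus strand): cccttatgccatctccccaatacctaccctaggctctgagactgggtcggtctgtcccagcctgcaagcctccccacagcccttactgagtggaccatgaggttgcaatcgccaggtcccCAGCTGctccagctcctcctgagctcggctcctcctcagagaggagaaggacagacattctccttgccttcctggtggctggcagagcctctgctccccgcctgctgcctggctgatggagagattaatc
Kcnj3 (chr2:55435720-55435969, plus strand): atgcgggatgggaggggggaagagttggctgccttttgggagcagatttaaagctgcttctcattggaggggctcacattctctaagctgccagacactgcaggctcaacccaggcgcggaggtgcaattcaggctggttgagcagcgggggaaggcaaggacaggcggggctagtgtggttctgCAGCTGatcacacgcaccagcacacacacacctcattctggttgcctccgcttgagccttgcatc
In Kcng4 the motif begins 130 bases before the transcript start and in Kcnj3 65 bases before it. These matches are letters in a window and were not tested as binding sites.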

How the data were processed

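RNA of sham heart and quadriceps was sequenced by the authors after mRNA purification and ScriptSeq v2 library preparation (HiSeq2500, single reads of 50 cycles). The authors trimmed reads with Trim Galore, dropped those under 20 bases, aligned to mm10 with STAR and counted on RefSeq transcripts with Rsubread; versions and the strand setting are not given in the sources used here. The deposited values used were raw counts, not normalized, and RPKM, which equal counts divided by deposited transcript length and library total. Columns of the authors' own comparisons (fold changes and p-values) were not used, nor were 12 columns of single libraries in the table of secreted proteins.

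Counts of the 6 libraries were fitted in edgeR 4.0.16 (R 4.3.3; TMM, quasi-likelihood, Benjamini-Hochberg over 24280 transcripts), without a block. Intervals and floors (3 counts over a group) cover counting error only. Named genes were fixed sets by current or family, plus the 10 largest non-overlapping changes in each direction with at least 1 RPKM in the higher tissue. A few others (Kcnc2, Kcnf1, Kcnj10, Kcnj15, Kcns2, Kcnt2 and noncoding or untested members) were named after their values were seen. Values of some members, listed genes and sequences are not reported here. Members and lists were chosen with earlier results of these data known. On simulated data with 200 of 24136 transcripts changed by a log2 fold change of 2, 99.5% were recovered and 0.995% of calls were false. Recovery at the shares called between these tissues (32.2% of all transcripts higher and 34.4% lower) was not tested, nor was the share of false calls. Replicates of a tissue differed by more than sampling noise (chi-square per degree of freedom at least 7.16). Alternatives were DESeq2 1.42.0, limma 3.58.1 on log2 RPKM plus a pseudocount, other filters and scalings, transcripts added up, a replicate block and each library left out.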

Additional observations from a re-analysis of the deposited data

How the results depend on the processing

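The 19 largest changes named (9 higher and 10 lower) kept direction and call in all 310 values from the 17 alternatives, counting those in which the gene was tested. They had been picked as called, large and non-overlapping changes in the same 6 libraries, so this outcome was largely set by the choice. Of the 42 called members, 38 stayed called without any 1 library; Kcnc2, Kcnk5 and Kcnn2 lost the call at least once, and Kcnd3os was untested in 2 of these fits. Leaving out 1 library at a time gave 13 to 19 higher and 26 to 28 lower members, and 8 to 11 and 19 to 22 beyond a log2 fold change of 2. Requiring at least 10 counts in every library left 21 members, 6 higher and 6 lower (3 and 1 beyond 2), because genes near 0 in one tissue drop out. With limma, the pseudocount shrinks changes of low genes: beyond 2 there were 6 higher and 11 lower with 0.5, 12 lower with 0.1, and 4 higher and 8 lower with 1. With no count filter, 90 members entered and 18 were higher and 28 lower. The share of all genes called is not given here for any alternative. Counts of higher and lower members in this section therefore stand without a background.

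Among 47 named genes followed through the alternatives, signs turned for 8 that were not called. Outside that set, the uncalled Kcnt1 and Kcnq1ot1 also turned with library totals, to -0.70 and -0.47. For Kcna1, Kcna2, Kcna5, Kcne3, Kcnj2 and Kcnn3, in this order, library totals gave -0.55, -0.65, -0.54, -0.086, -0.25 and -0.11. Limma gave -0.16, -0.14, -0.45, -0.046, -0.29 and -0.043 with a pseudocount of 0.5, -0.36, -0.38, -0.53, -0.18, -0.30 and -0.17 with 0.1, and -0.095, -0.077, -0.38, -0.023, -0.27 and -0.021 with 1. Both scale by library totals, and Kcna5 in all 4 of these settings and Kcna2 with library totals were then called lower. Kcnj6 was 0.36 with transcripts added up. With 1 library left out, Kcna1 ranged from -0.065 (without heart 3) to 0.33, Kcna2 from -0.000516 (without heart 3) to 0.28, Kcnj11 from -0.25 to 0.10 (without quadriceps 1), and Kcnn3 from -0.082 (without quadriceps 1) to 1.02. Kcna1 was also -0.03 without quadriceps 1.

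The deviations of same-numbered heart and quadriceps libraries from their tissue means correlated at 0.049, -0.052 and 0.034. Values near 0 cannot tell whether such libraries came from the same animals, because 2 tissues of a mouse need not deviate together. With a replicate block 13 members were higher and 28 lower (11 and 21 beyond 2), and of the named genes Kcnk5 lost its call (1.21, adjusted p = 0.0526).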
